A study of Mus musculus with 18 samples.

Results

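The 10 genes described here are mucins and secreted proteins best known from the airway lining: the gel-forming mucins Muc5b and Muc5ac, the membrane-spanning mucins Muc1, Muc4, Muc13, Muc15, Muc16 and Muc20, and the BPI-fold proteins Bpifa1 and Bpifb1. They were found by symbol among 55450 gene rows, and all 10 passed the filter on low counts. The set was chosen by measured expression, since Muc5b and Bpifa1 were among the largest rises in these tumors, so the levels of these 2 genes are a description and are given no test. The other 8 members were tested.

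RNA was sequenced from 15 mouse mammary tumors and 3 normal glands of C57Bl/6 females. B1/P tumors (n = 5) came from Brca1fl/fl/Trp53fl/fl mice, P/Rbf tumors (n = 5) from Trp53fl/fl/TgK18GT121Tg/+ mice and B1/P/Rbf tumors (n = 5) from Brca1fl/fl/Trp53fl/fl/TgK18GT121Tg/+ mice, and all tumor groups therefore carry floxed Trp53. In the tumor groups the alleles were recombined by an adenovirus that expresses Cre from the CMV promoter, put into the ducts of a number 4 gland through its nipple when the mice were 9 to 13 weeks old. T121 is an amino-terminal piece of SV40 large T antigen that inhibits the Rb family (Rbf), made from the keratin 18 promoter after Cre has acted. The normal glands (n = 3) were wild type, and no virus is named for them. By RT-qPCR, B1/P/Rbf tumor 208863 had lost Brca1 expression only in part, and the edgeR calls of members in B1/P/Rbf against B1/P and against normal gland all held without it. Age at collection is not given in the sources used here. Each sample is named by its mouse number, and whole tissue was used, so a lower share of a cell type and less RNA per cell cannot be told apart.

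Mucins are proteins with long serine- and threonine-rich stretches that carry dense O-linked sugars. The gel-forming mucins are secreted, link into polymers and make up mucus, whereas the membrane-spanning mucins stay on the apical surface of epithelial cells, and their outer parts can be shed. BPI-fold proteins such as Bpifa1 are small secreted proteins of the upper airway. In the mammary gland, Muc1 is the familiar apical mucin and Muc15 is known from the membrane of milk fat globules.

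Depth ranged from 27661173 to 37794889 expected counts per sample, and levels are given as CPM, the count scaled by library size with TMM factors. Trp53 read 61.5 ± 9.16 CPM (SD, n = 3) in normal glands and between 10.8 and 14.8 CPM as the means of the 3 tumor groups, lower in each by edgeR (adjusted p from 5.02e-05 to 0.00037). Brca1 read 79.0 ± 32.7 CPM (n = 5) in P/Rbf tumors and 15.3 ± 8.78 CPM (n = 5) in B1/P tumors (edgeR, adjusted p = 0.000845), but 29.8 ± 8.97 CPM in B1/P/Rbf tumors did not pass the test against P/Rbf (adjusted p = 0.0903), and normal glands were lowest at 5.45 ± 0.735 CPM (n = 3). Whole-gene counts do not read the floxed exons alone. The summed level of 10 epithelial markers was 3988 to 7897 CPM in B1/P/Rbf tumors, 7318 to 13862 CPM in P/Rbf tumors, 1067 to 3951 CPM in B1/P tumors and 2416 to 2901 CPM in normal glands. The normal glands stood apart, with adipocyte markers summing to 19620 to 25182 CPM against at most 236 CPM in any tumor, skeletal muscle markers to 21336 to 41889 CPM against at most 588 CPM, and lymphocyte markers to 333 to 451 CPM against at most 15.5 CPM. Their part in the comparisons with normal gland was not tested.

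Promoter sequence from RefSeq (GRCm38.p6) was held for 7 of the 10 members (not Muc5b, Muc5ac and Muc15). Those of Muc13 and Muc1, which rose in both T121 groups against B1/P, and of Bpifa1 are shown as the 250 bases before the start site, 5′ to 3′ on the gene's strand, which is the plus strand for all 3. Muc13 has 2 start sites in the table and the upstream one is shown. Searched on both strands were the forkhead motif TGTTTAC, the GATA factor motif AGATAA, the E2F motif TTTCCCGC and the nuclear receptor motif AGGTCA. Capitals in the sequences mark a match.
Muc13 (chr16:33793787-33794036): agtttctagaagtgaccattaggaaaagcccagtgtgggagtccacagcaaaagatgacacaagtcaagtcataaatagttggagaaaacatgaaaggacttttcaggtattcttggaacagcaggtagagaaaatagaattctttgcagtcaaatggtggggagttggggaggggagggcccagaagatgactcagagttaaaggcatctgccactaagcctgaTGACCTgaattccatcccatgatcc
Muc1 (chr3:89228806-89229055): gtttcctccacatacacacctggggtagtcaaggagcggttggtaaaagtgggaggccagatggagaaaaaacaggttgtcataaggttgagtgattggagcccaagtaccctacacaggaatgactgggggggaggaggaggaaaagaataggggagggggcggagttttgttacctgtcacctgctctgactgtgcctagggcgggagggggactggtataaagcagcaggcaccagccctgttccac
Bpifa1 (chr2:154142630-154142879): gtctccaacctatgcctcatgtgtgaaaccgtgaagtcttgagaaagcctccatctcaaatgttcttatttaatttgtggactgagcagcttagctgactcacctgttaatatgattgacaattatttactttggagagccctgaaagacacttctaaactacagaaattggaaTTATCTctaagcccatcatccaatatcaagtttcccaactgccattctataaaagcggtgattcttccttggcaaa
The capitals in Muc13, TGACCT, are the opposite strand of AGGTCA, with their first base 25 bases before the start, and 16.3% of 32851 promoter windows of 300 bases hold this motif. The capitals in Bpifa1, TTATCT, are the opposite strand of AGATAA, 76 bases before the start, and 11.2% of windows hold it. Muc1 held none of the 4 motifs, of which the forkhead motif is in 3.65% and the E2F motif in 1.07% of windows. The windows of Muc4 held 2 and of Muc20 and Bpifb1 1 match each, that of the other Muc13 start 2, and that of Muc16 none. The windows searched also take in 50 bases after the start, and a match describes the letters in the window only.

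**Figure D1:**
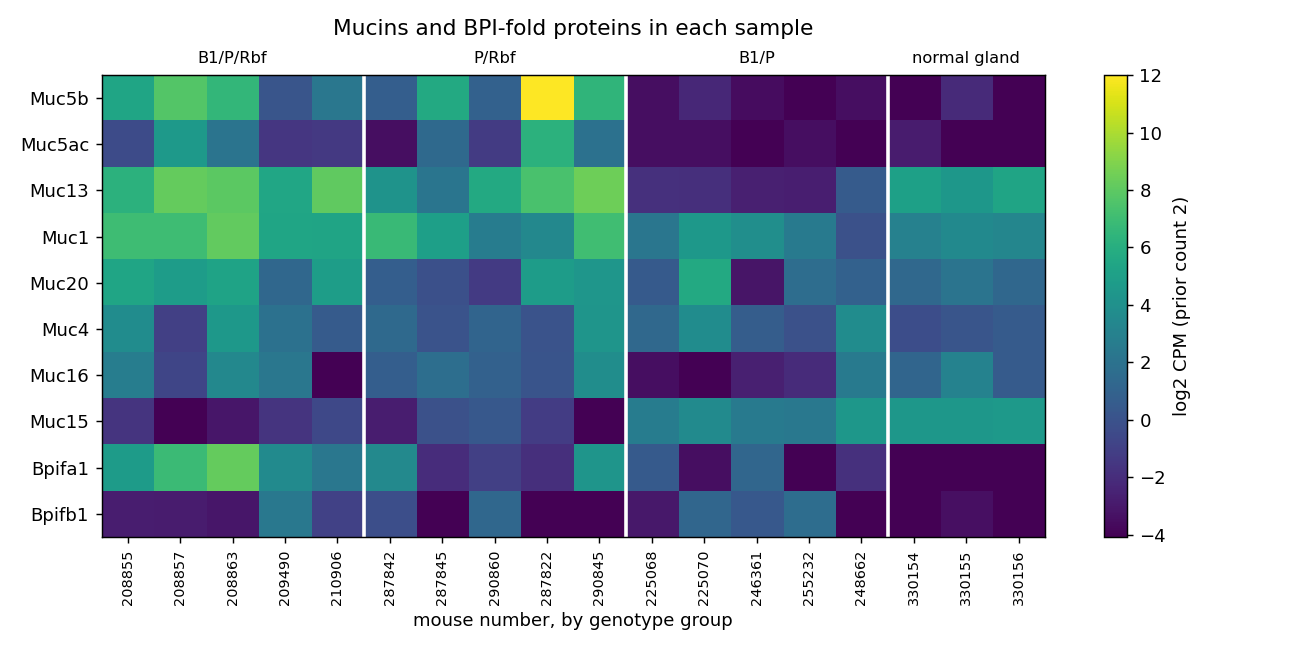
Level of each of the 10 genes (rows, log2 CPM with a prior count of 2) in each of the 18 samples (columns, by mouse number and genotype group). Muc13 is bright in both T121 groups and dark in B1/P tumors, Muc15 runs the other way, and the brightest cell is Muc5b in P/Rbf tumor 287822.

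Muc5b, the main polymer of normal airway mucus (chr7:141839070-141873084, plus strand, GRCm38, GENCODE M21), was present in every T121 tumor and close to absent elsewhere. In B1/P/Rbf tumors Muc5b read 41.1, 207, 94.0, 1.04 and 4.84 CPM in tumors 208855, 208857, 208863, 209490 and 210906. In P/Rbf tumors Muc5b read 1.61, 51.9, 1.80, 4137 and 85.7 CPM in tumors 287842, 287845, 290860, 287822 and 290845. The 5 B1/P tumors held 1, 5, 1, 0 and 1 Muc5b counts, and the 3 glands 0, 5 and 0. Every T121 tumor was above every B1/P tumor and every gland, but the T121 tumors themselves spread widely, 199-fold from lowest to highest in B1/P/Rbf and 2568-fold in P/Rbf.

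Tumor 287822 set the P/Rbf mean of Muc5b. The mean was 856 ± 1834 CPM (SD, n = 5) with it and 35.3 ± 41.1 CPM (n = 4) without it, beside 69.7 ± 85.6 CPM (n = 5) in B1/P/Rbf. Accordingly the fitted log2 difference in Muc5b of B1/P/Rbf minus P/Rbf was -3.62 (SE 1.66) with tumor 287822 and 0.98 (SE 1.22) without it, a turn in direction. That tumor held 157154 Muc5b counts, against at most 7686 in any other tumor. The same tumor held the highest level among tumors of several secretory genes, with 1766 CPM of Xbp1, a transcription factor of the secretory apparatus, 958 CPM of Ltf (lactoferrin), 111 CPM of Creb3l1 and 70.3 CPM of Pigr, the receptor that carries immunoglobulin A across epithelium. These 4 genes were picked after their values were seen. Of the 26 goblet and club cell genes described further on, 4 were highest among tumors in 287822 and the others in another tumor.

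Muc5ac, the gel-forming mucin of surface goblet cells in airway and stomach, lies 19.8 kb before Muc5b on chromosome 7 (chr7:141788972-141819231, plus strand) and rose in both T121 groups against B1/P tumors. Muc5ac read 0.709, 25.1, 4.16, 0.279 and 0.325 CPM in B1/P/Rbf tumors and 0.0288, 2.65, 0.354, 76.1 and 3.68 CPM in P/Rbf tumors, in the same mouse order as above. B1/P tumors held at most 1 Muc5ac count each and the glands at most 2, which is within the floor of 3 counts per library. Against that floor mean Muc5ac in B1/P/Rbf tumors was at least 64.1-fold higher than B1/P (edgeR, adjusted p = 0.0142), and mean Muc5ac in P/Rbf tumors at least 174-fold higher than B1/P (adjusted p = 0.00685). These bounds rested on 1 tumor each and were 14.4-fold without 208857 (adjusted p = 0.043) and 17.6-fold without 287822 (adjusted p = 0.019). P/Rbf tumor 287842, with 1 count, lay inside the B1/P range, so only the B1/P/Rbf group was free of overlap. With limma-voom and quantile normalization neither difference passed (adjusted p = 0.0825 and 0.0605), and DESeq2 gave no adjusted p for this gene. Without tumor 287822 the P/Rbf mean of Muc5ac was 1.68 ± 1.77 CPM (n = 4) against 16.6 ± 33.3 CPM with it.

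The tumors ranked alike for the 2 gel-forming mucins. The 6 tumors highest in Muc5b were also the 6 highest in Muc5ac and in the same order, from 287822 through 208857, 208863, 290845 and 287845 to 208855. Muc5b was the more abundant in every T121 tumor, with a ratio per exon length to Muc5ac between 2.68 and 41.7. Of their neighbors, Muc2, the intestinal gel-forming mucin 34.3 kb on the other side of Muc5ac, read 0.539 to 26.9 CPM in B1/P/Rbf, 0.252 to 12.0 CPM in P/Rbf, 0.126 to 3.16 CPM in B1/P and 0.327 to 0.625 CPM in glands, and did not pass in B1/P/Rbf against B1/P (log2 difference 3.30, SE 1.17, edgeR adjusted p = 0.0617), while it rose in B1/P/Rbf against normal gland (log2 difference 4.68, SE 1.57, adjusted p = 0.0269). Tollip, 1.7 kb beyond Muc5b, read 61.7 to 117 CPM in B1/P tumors and from 93.9 to 145 CPM in B1/P/Rbf tumors (log2 difference 0.45, SE 0.25, adjusted p = 0.234).

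**Figure D2:**
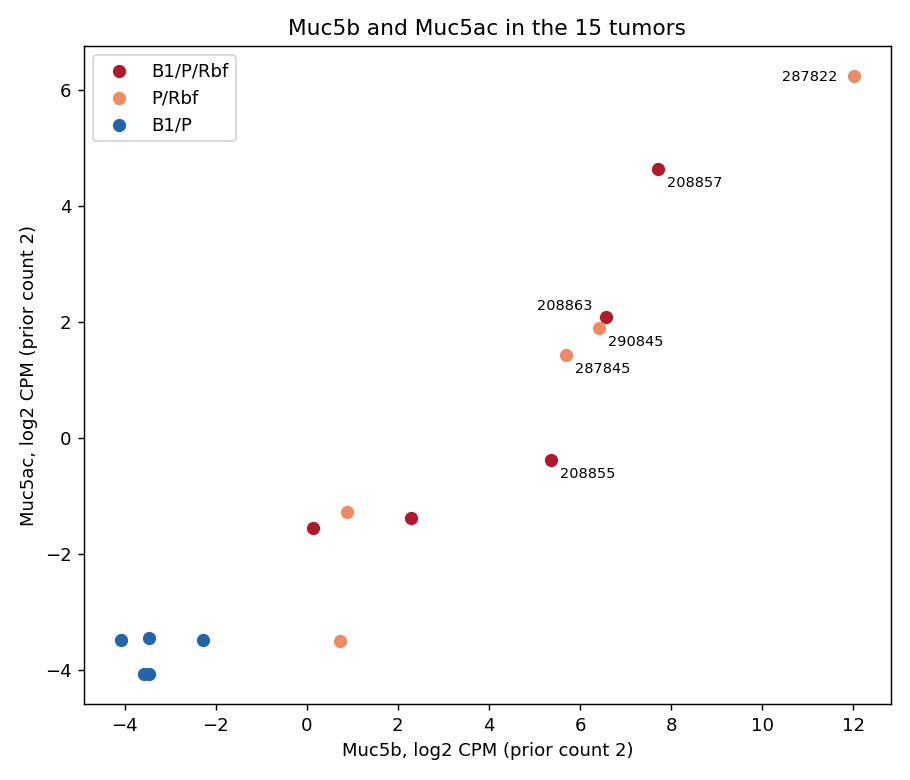
Muc5b (horizontal axis) against Muc5ac (vertical axis) in the 15 tumors, both in log2 CPM with a prior count of 2, colored by genotype. The 6 labelled tumors lead both genes in one order, and the 5 B1/P tumors lie together at the lower left.

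Bpifa1, a secreted airway protein also called SPLUNC1 that regulates the surface liquid (chr2:154142880-154149219, plus strand), had its highest median in the B1/P/Rbf tumors, with ranges that overlapped those of P/Rbf. It read 27.1, 116, 291, 12.4 and 4.97 CPM in the B1/P/Rbf tumors, all above the 2.24 CPM of the highest B1/P tumor. In P/Rbf tumors Bpifa1 was split, at 11.2 and 20.2 CPM in tumors 287842 and 290845 and at 0.189, 0.430 and 0.211 CPM in the other three. B1/P tumors read 1.34, 0.0296, 2.24, 0 and 0.221 CPM, and no Bpifa1 count was found in the 3 glands. The medians of the 5 tumors were 27.1 CPM for B1/P/Rbf, 0.430 CPM for P/Rbf and 0.221 CPM for B1/P. Against the floor of 3 counts per library in the glands, the B1/P/Rbf mean of Bpifa1 was at least 771-fold higher and the P/Rbf mean at least 54.9-fold higher, bounds that were 342-fold without tumor 208863 and 25.6-fold without tumor 290845. Tumor 208863, the highest in Bpifa1, is the one with partial loss of Brca1 expression, and without it the B1/P/Rbf mean was 40.2 ± 51.5 CPM (SD, n = 4).

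Bpifb1, a longer relative known as LPLUNC1 that lies in the same cluster on chromosome 2 (chr2:154190818-154220369, plus strand), did not follow Bpifa1. It read at most 5.00 CPM in any sample and passed the test in none of the 6 comparisons by edgeR, although 2 of them, B1/P/Rbf and B1/P against normal gland, had an unadjusted p under 0.05 and DESeq2 called all 3 tumor groups higher than normal gland (adjusted p from 0.0118 to 0.0351). Bpifb1 was also called in B1/P against normal gland when edgeR was fitted to those groups alone (log2 difference 6.45, SE 2.05, adjusted p = 0.0362). The highest B1/P/Rbf tumor in Bpifb1 was 209490 at 5.00 CPM, where Bpifa1 was at 12.4 CPM, while the tumor with 291 CPM of Bpifa1 held 2 counts of Bpifb1. B1/P tumors read 0.0636, 2.31, 1.21, 3.16 and 0 CPM of Bpifb1, and 3 of the 5 P/Rbf tumors held no count. The log2 difference in Bpifb1 of B1/P/Rbf minus B1/P was -0.25 (SE 1.54, adjusted p = 0.936). Between the pair, Bpifa5 read at most 0.216 CPM, and Bpifa3, on the other side of Bpifa1, was at 0 in all 18 samples.

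**Figure D3:**
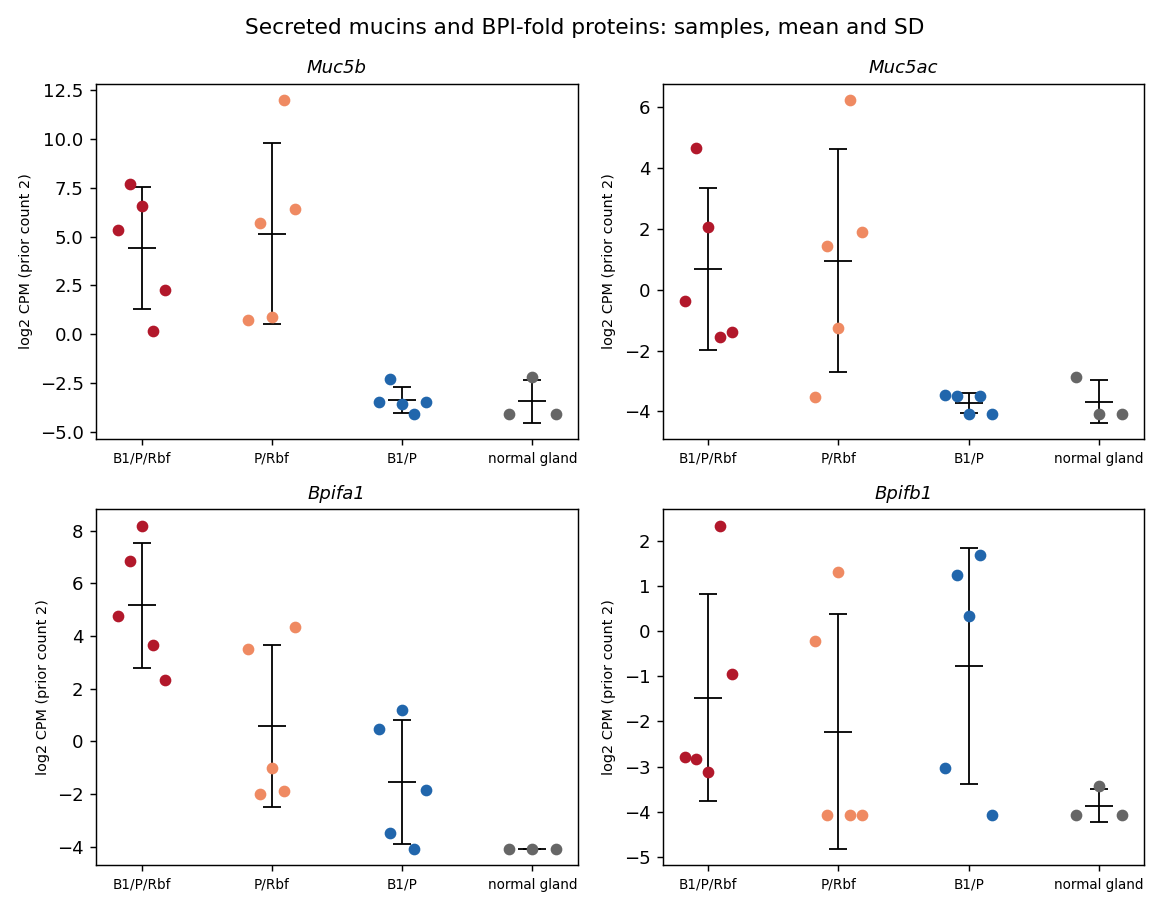
Muc5b, Muc5ac, Bpifa1 and Bpifb1 by genotype (log2 CPM with a prior count of 2), with a point per sample and bars for the mean and SD of the log2 values. The T121 groups lie above B1/P and normal gland for Muc5b, B1/P/Rbf does so for Bpifa1, and the groups of tumors overlap for Bpifb1.

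Muc13, a membrane-spanning mucin of intestinal and airway epithelium (chr16:33794037-33819934, plus strand), separated T121 tumors from B1/P tumors completely. Muc13 read 77.3, 292, 249, 42.8 and 269 CPM in B1/P/Rbf and 18.1, 4.42, 52.7, 171 and 359 CPM in P/Rbf, against 0.223, 0.207, 0.101, 0.0887 and 1.39 CPM in B1/P. The 3 normal glands read 33.0, 21.1 and 39.3 CPM, so that B1/P tumors lay below every other sample. Mean Muc13 in B1/P/Rbf tumors was 464 times that of B1/P (log2 difference 8.87, SE 1.26, edgeR adjusted p = 0.000468) and in P/Rbf tumors 302 times that of B1/P (log2 difference 8.25, SE 1.23, adjusted p = 0.000643). Without B1/P tumor 248662 the 2 ratios were 1202 and 782, and without P/Rbf tumor 290845 the second was 154. Muc13 fell by 6.29 on the log2 scale from normal gland to B1/P tumors (SE 1.18, adjusted p = 0.000621), while the difference of B1/P/Rbf minus normal gland did not pass (log2 difference 2.58, SE 1.14, adjusted p = 0.085). That last difference passed without P/Rbf tumor 287845 (adjusted p = 0.0466), with DESeq2 (0.0281), without TMM factors (0.0497) and in a fit of the compared groups alone (0.0123).

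The median summed epithelial marker level in B1/P/Rbf tumors was 2.62 times that of B1/P tumors, and in P/Rbf tumors 3.24 times. The part of epithelial content in the levels of the members was not tested. Of the neighbors of Muc13 on chromosome 16, Itgb5, 9.7 kb away, had a log2 difference of -0.11 (SE 0.23, edgeR adjusted p = 0.769) between B1/P/Rbf and B1/P, and Heg1, 22.5 kb away, one of -0.01 (SE 0.57, adjusted p = 0.997). The antisense gene Gm15657 shares 184 exon bases with Muc13 and read 0.304 to 2.04 CPM in B1/P/Rbf, at most 1.67 CPM in P/Rbf and at most 0.0315 CPM in B1/P. The libraries were made with a stranded kit, but whether strand was used in counting is not given in the sources used here, and without it reads in those bases cannot be told apart.

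Muc1, the apical mucin of glandular epithelium (chr3:89229057-89233381, plus strand), rose in the same direction by a smaller amount. It read 130, 128, 288, 41.2 and 40.5 CPM in B1/P/Rbf and 4.61, 22.6, 14.5, 5.50 and 0.883 CPM in B1/P, with no overlap. Mean Muc1 in B1/P/Rbf tumors was 13.0 times that of B1/P (log2 difference 3.70, SE 0.91, edgeR adjusted p = 0.0112), and the call held without each sample in turn (adjusted p from 0.00777 to 0.0297), with a ratio of 19.7 without B1/P tumor 225070. In P/Rbf, Muc1 read 114, 32.4, 6.43, 10.7 and 132 CPM, so that tumors 290860 and 287822 lay within the B1/P range. The log2 difference of P/Rbf minus B1/P was 2.62 (SE 0.87, adjusted p = 0.0439), and it was lost without B1/P/Rbf tumor 208855 or 208857, B1/P tumor 225068, 246361, 255232 or 248662, P/Rbf tumor 287842 or 290845, or gland 330154 or 330156 (adjusted p from 0.0514 to 0.113). It was also lost with limma-voom (0.121) and in a fit of the compared groups alone (0.109). The glands read 7.93, 11.5 and 9.82 CPM of Muc1, below every B1/P/Rbf tumor (log2 difference 3.68, SE 1.13, adjusted p = 0.0169), a call lost without gland 330154 (adjusted p = 0.0671) or 330156 (0.0635). Trim46, 0.8 kb from Muc1, had a log2 difference of -0.74 (SE 0.46, adjusted p = 0.293) between B1/P/Rbf and B1/P.

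Muc15, known from milk fat globules (chr2:110721340-110739527, plus strand), went the opposite way and fell in both T121 groups. The normal glands read 21.2, 21.2 and 25.0 CPM of Muc15 and the B1/P tumors 6.45, 12.2, 5.68, 5.09 and 21.7 CPM. B1/P/Rbf tumors read 0.255, 0, 0.0551, 0.254 and 0.617 CPM and P/Rbf tumors 0.0863, 0.883, 1.24, 0.368 and 0 CPM, so every T121 tumor was below every other sample. Against B1/P, Muc15 fell by 5.43 on the log2 scale in B1/P/Rbf (SE 1.05, edgeR adjusted p = 0.00267) and fell by 4.29 in P/Rbf (SE 0.98, adjusted p = 0.00716). Against normal gland it fell by 6.57 in B1/P/Rbf (SE 1.13, adjusted p = 0.000264) and fell by 5.43 in P/Rbf (SE 1.07, adjusted p = 0.000812), whereas the B1/P tumors did not pass (log2 difference -1.14, SE 0.96, adjusted p = 0.382). The 4 calls held without each sample in turn and under each alternative that kept the gene. The summed epithelial markers were 2.62 and 3.24 times higher, by median, in the same 2 comparisons with B1/P, and their part in the fall was not tested. Ano3, on the opposite strand, shares 61 exon bases with Muc15 and read at most 0.504 CPM in any sample.

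Muc20, a membrane-spanning mucin that binds the receptor MET (chr16:32777419-32797435, minus strand), was high in 4 of the 5 B1/P/Rbf tumors and scattered elsewhere. The B1/P/Rbf tumors read 40.9, 28.6, 38.5, 2.38 and 29.5 CPM of Muc20, the P/Rbf tumors 1.58, 0.852, 0.329, 27.9 and 20.9 CPM, and the glands 2.46, 4.25 and 2.40 CPM. B1/P tumors read 1.30, 52.7, 0.0503, 3.13 and 1.80 CPM, of which tumor 225070 was the highest of all 18 samples. The log2 difference in Muc20 of B1/P/Rbf minus B1/P was 1.25 (SE 1.29, edgeR adjusted p = 0.544) and became 4.15 (SE 1.30, adjusted p = 0.0355) without tumor 225070. Against normal gland the log2 difference in Muc20 of B1/P/Rbf was 3.20 (SE 1.72, adjusted p = 0.155), which passed with DESeq2 (0.0413) and in a fit of the compared groups alone (0.0108).

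Muc4, a very large mucin with growth factor-like modules that binds ErbB2 (chr16:32735886-32782391, plus strand), passed the test in none of the 6 comparisons by edgeR, while DESeq2 called it higher in B1/P/Rbf against normal gland (log2 difference 2.91, adjusted p = 0.0249). Levels of Muc4 ran from 0.432 to 22.3 CPM in B1/P/Rbf, 0.948 to 20.3 CPM in P/Rbf, 0.887 to 13.6 CPM in B1/P and 0.782 to 1.39 CPM in glands. The log2 difference of B1/P/Rbf minus B1/P was 0.38 (SE 1.04, edgeR adjusted p = 0.842), an interval of 2 SE that ran from -1.69 to 2.45. Muc4 and Muc20 lie tail to tail and share 627 exon bases on opposite strands, so reads there cannot be told apart without strand.

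Muc16, which carries the CA125 antigen (chr9:18495455-18674530, minus strand), was also variable within groups. Muc16 read 6.64, 0.540, 10.6, 4.95 and 0 CPM in B1/P/Rbf and 1.61, 3.28, 1.85, 1.00 and 13.7 CPM in P/Rbf, and 2.23, 8.18 and 1.42 CPM in glands. In B1/P it read at most 0.177 CPM in 4 tumors and 5.71 CPM in tumor 248662. With that tumor, the log2 difference of B1/P/Rbf minus B1/P was 1.92 (SE 1.45, edgeR adjusted p = 0.389), and without it 5.80 (SE 1.53, adjusted p = 0.0197). The difference of P/Rbf minus B1/P changed likewise, from 1.83 (SE 1.44, adjusted p = 0.385) to 5.71 (SE 1.52, adjusted p = 0.0188), and that of B1/P minus normal gland from -1.71 (SE 1.58, adjusted p = 0.426) to -5.59 (SE 1.56, adjusted p = 0.0128).

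**Figure D4:**
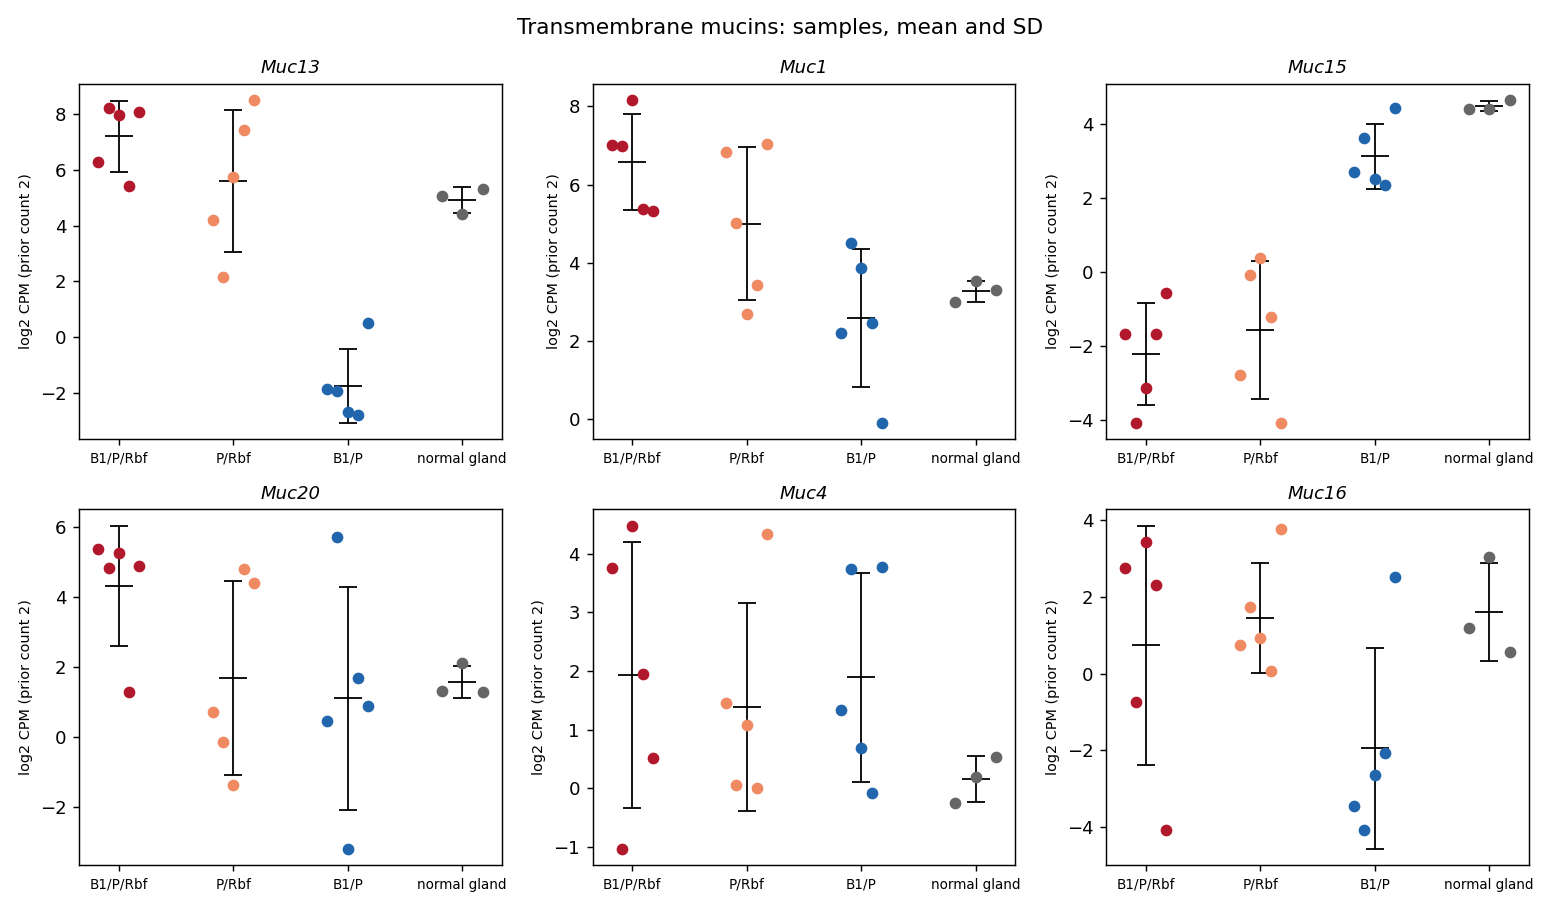
The 6 membrane-spanning mucins by genotype (log2 CPM with a prior count of 2), with a point per sample and bars for the mean and SD of the log2 values. B1/P tumors lie below all other samples for Muc13, both T121 groups lie below B1/P and normal gland for Muc15, and the tumor groups overlap for Muc4 and Muc16.

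Of the 8 tested members, 3 rose (Muc5ac, Muc13 and Muc1) and 1 fell (Muc15) in B1/P/Rbf against B1/P tumors, where 16.7% of all 19186 genes were called by edgeR. The same 3 rose and the same 1 fell in P/Rbf against B1/P, where 19.2% of genes were called. Of these P/Rbf calls, only those of Muc13 and Muc15 held without each sample in turn and under each alternative that kept the gene. In B1/P/Rbf against P/Rbf none of the 8 was called by edgeR (0 at an unadjusted p under 0.05, and 0 by limma-voom and by DESeq2), where 0.281% of genes were called. The widest of these intervals was that of Bpifb1, from -2.32 to 3.92 on the log2 scale (2 SE), so changes of that size could not be seen with 5 tumors a group. The median log2 difference of the 8 was 1.58 in B1/P/Rbf against B1/P and 0.82 in P/Rbf against B1/P, beside -0.06 and -0.05 over all genes. These comparisons share the B1/P tumors.

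Groups did not overlap for 4 of the 8 members in B1/P/Rbf against B1/P (Muc5ac, Muc13, Muc1 and Muc15), for 2 in P/Rbf against B1/P (Muc13 and Muc15) and for 0 in B1/P/Rbf against P/Rbf. Among all genes tested the shares without overlap were 10.5%, 8.86% and 3.02%.

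Against the normal glands, which all 3 such comparisons share, 3, 1 and 2 of the 8 members were called in B1/P/Rbf, in B1/P and in P/Rbf, respectively. In B1/P/Rbf, 2 rose (Muc5ac and Muc1) and Muc15 fell, where 37.0% of genes were called. In P/Rbf, Muc5ac rose and Muc15 fell, where 37.7% were called, and in B1/P only Muc13 was called, as a fall, where 33.8% were called. Muc5ac was at least 52.1-fold higher than the floor of the glands in B1/P/Rbf (edgeR, adjusted p = 0.0275) and at least 141-fold higher in P/Rbf (adjusted p = 0.014), bounds that were 11.7-fold without 208857 and 14.3-fold without 287822. The first of these calls was lost without B1/P/Rbf tumor 208857 (adjusted p = 0.0658) or gland 330154 (0.0642), 330155 (0.0932) or 330156 (0.1), and the second without gland 330155 (0.0568) or 330156 (0.0617). With limma-voom and quantile normalization neither Muc5ac call was made (adjusted p = 0.0811 in B1/P/Rbf and 0.0635 in P/Rbf). Groups did not overlap for 5 of the 8 members in B1/P/Rbf against normal gland (Muc5ac, Muc13, Muc1, Bpifb1 and Muc15) and for 1 each in B1/P (Muc13) and P/Rbf (Muc15), where 50.5%, 41.4% and 46.5% of all genes did not overlap. For Bpifb1 that gap lay within the floor of 3 counts. The B1/P/Rbf tumors held 3, 3, 2, 197 and 14 Bpifb1 counts and each gland at most 1.

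**Figure D5:**
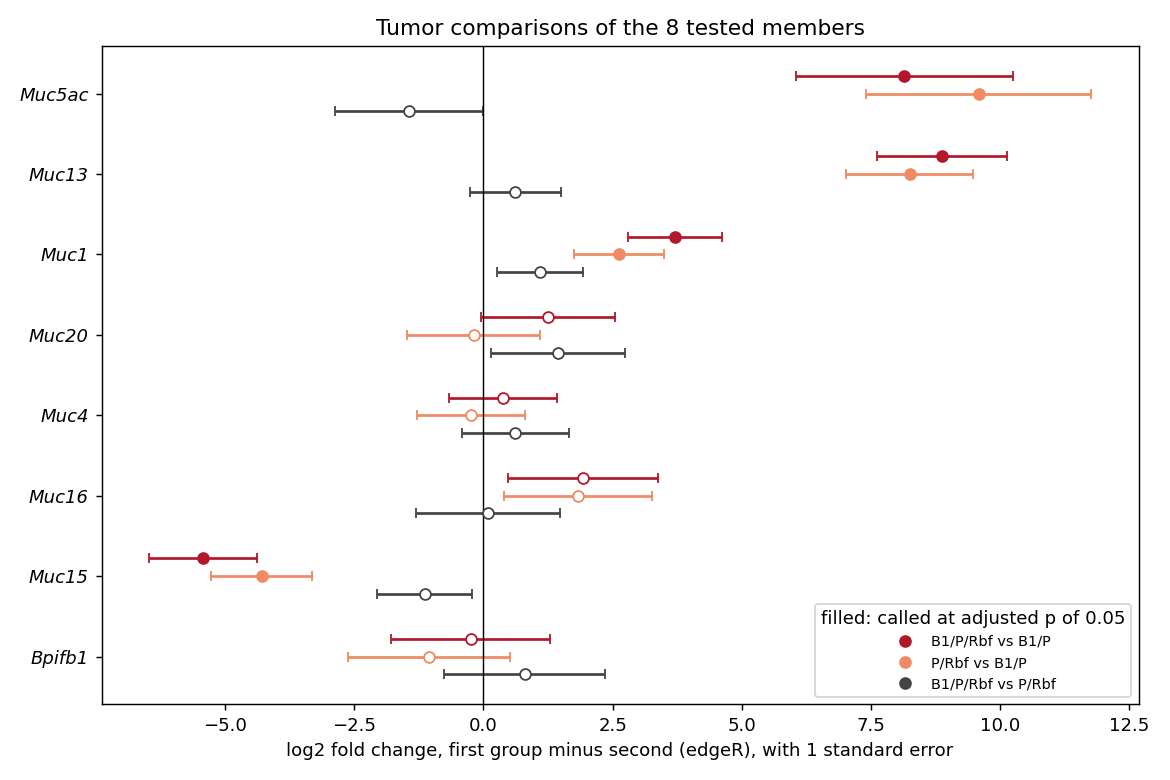
Fitted log2 differences of the 8 tested members (first group minus second, horizontal axis) with 1 standard error for the 3 comparisons between tumor groups, filled where the adjusted p was 0.05 or less. Muc5ac, Muc13 and Muc1 are filled to the right and Muc15 to the left in both comparisons with B1/P, and no point is filled for B1/P/Rbf against P/Rbf. The points of Muc5ac against B1/P depend on the prior count, since B1/P is at the floor.

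Per exon length the order of the members differed between groups. In B1/P/Rbf the median was highest for Muc13 (81.9 CPM per kb), followed by Muc1 (54.5), Bpifa1 (17.6), Muc20 (7.33) and Muc5b (2.75), but the ranges of each neighboring pair in that order overlapped. In P/Rbf the order began with Muc13 (17.3 CPM per kb), Muc1 (13.8) and Muc5b (3.47), again with overlap. In B1/P it began with Muc1 (2.34 CPM per kb), Muc15 (1.81) and Muc20 (0.446), and Muc13 was at 0.0682. In normal glands Muc13 (10.9 CPM per kb) and Muc15 (5.95) were followed by Muc1 (4.18), whose highest gland at 4.91 lay below the lowest for Muc15 at 5.94.

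The genes most like a member were sought by Spearman correlation of log2 CPM over the 15 tumors among 12589 genes whose mean reached 5 CPM, as a description of samples that fall into genotype groups. For Muc5b they included Ets2 (0.96), an Ets-family transcription factor, Muc5ac (0.94), Acap1 (0.91) and Wfs1 (0.91), an endoplasmic reticulum membrane protein. Ets2 had medians of 506 CPM in B1/P/Rbf, 744 CPM in P/Rbf and 224 CPM in B1/P, and its highest tumor was also 287822 at 1052 CPM. For Bpifa1 they were Alcam (0.91), a cell adhesion molecule, Cap2 (0.89), Ift57 (0.88), a part of the transport machinery of cilia, Slc35f3 (0.87) and Sptlc3 (0.86). Slc35f3 had medians of 55.1 CPM in B1/P/Rbf, 16.3 CPM in P/Rbf and 0.237 CPM in B1/P.

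Among 9 tested other mucins and mucin-like genes, 1 rose and 2 fell in B1/P/Rbf against B1/P, and 1 rose and 3 fell in P/Rbf against B1/P (medians 0.11 and -0.09 on the log2 scale). Cd164, a sialomucin, was the gene that rose, from 127 to 887 CPM in B1/P to 936 to 2287 CPM in B1/P/Rbf (log2 difference 1.94, SE 0.47, edgeR adjusted p = 0.0106). Muc19, another gel-forming mucin, held at most 3 counts per B1/P/Rbf tumor against 0.0318 to 5.88 CPM in B1/P (adjusted p = 0.0496). In P/Rbf, Muc19 had a median of 0.919 CPM and reached 10.1 CPM, against a B1/P median of 0.0946 CPM, and was called higher than in the glands (adjusted p = 0.0373), which read at most 0.0391 CPM. Among 8 tested BPI-fold genes outside the members, 0 rose and 2 fell in each of the same comparisons (medians -1.19 and -1.63 on the log2 scale, or -1.18 and -2.61 with genes at the floor set to their bounds). One was Bpifb5, 3.4 kb from Bpifb1, which read 0 to 13.1 CPM in B1/P (median 0.509), with its highest level in tumor 255232. Bpifb5 read 0.720 to 0.938 CPM in glands and held at most 2 counts per B1/P/Rbf tumor (adjusted p = 0.00425), which lay within the B1/P range. The other was Pltp, the phospholipid transfer protein (log2 difference -2.26, SE 0.75, adjusted p = 0.0468). Over all genes 16.7% were called in B1/P/Rbf against B1/P and 19.2% in P/Rbf against B1/P, beside which the counts here and in the lists that follow are to be read. Of the 96 genes tested in 6 lists (these, and those of goblet and club cells, sugar enzymes, secretion and shedding, and transcription factors), 0 were called in B1/P/Rbf against P/Rbf by edgeR, with 21 at an unadjusted p under 0.05, 0 by limma-voom and 8 by DESeq2, which called 1026 of all genes there.

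Of 20 tested goblet and club cell genes, 5 rose and 2 fell in B1/P/Rbf against B1/P, and 2 rose and 2 fell in P/Rbf against B1/P (median log2 differences 1.38 and 1.12, the first 0.90 with genes at the floor set to their bounds). The calls in P/Rbf, 4 of 20, are close to the 19.2% of all genes. The regulators of goblet cells moved apart in P/Rbf against B1/P. Spdef rose (log2 difference 3.41, SE 0.93, edgeR adjusted p = 0.018) and Foxa3 fell (log2 difference -5.95, SE 1.39, adjusted p = 0.00796). Foxa3 read 0.0251 to 31.6 CPM in B1/P and at most 0.347 CPM in P/Rbf, and the ranges of Spdef and of Foxa3 overlapped between these groups. In B1/P/Rbf against B1/P, Foxa3 also fell (log2 difference -6.02, SE 1.4, adjusted p = 0.00797), again with overlap. Dmbt1, a secreted mucin-like scavenger protein, rose in B1/P/Rbf (log2 difference 7.33, SE 2.05, adjusted p = 0.0217), with a range from 1.43 to 949 CPM against at most 4.89 CPM in B1/P, and the glands read 184 to 852 CPM. Bcas1, also on the list, fell in both T121 groups against B1/P (log2 difference -4.29, SE 0.91, adjusted p = 0.00468 in B1/P/Rbf and -3.27, SE 0.86, adjusted p = 0.015 in P/Rbf). Named for their known roles and not for a call, Clca1, a secreted goblet cell protein, read 5.00 to 504 CPM in B1/P/Rbf (median 96.4), at most 95.4 CPM in P/Rbf (median 1.95) and at most 29.3 CPM in B1/P (median 1.30). The club cell enzyme Cyp2f2 had medians of 12.4, 28.0 and 2.27 CPM in the same order and the chloride transporter Slc12a2 of 1080, 797 and 98.4 CPM, and Ern2, a stress sensor of mucous cells, reached 6.16 CPM in B1/P/Rbf against 0.0591 CPM in B1/P. In glands Clca1 read 2.00 to 5.86 CPM, Cyp2f2 20.4 to 29.6 CPM, Slc12a2 1709 to 2079 CPM and Ern2 0 CPM. Agr2, which folds gel-forming mucins, read at most 1.26 CPM in any tumor, Tff3 at most 0.0754 CPM, and the club cell protein Scgb1a1 at most 8.09 CPM. Among the tumor groups, medians were highest in B1/P for Lcn2, the iron-carrier-binding lipocalin (648 CPM, against 274 CPM in P/Rbf and 287 CPM in B1/P/Rbf), and for Creb3l1, a transcription factor of secretory cells (7.75 CPM, against 6.28 and 4.12 CPM).

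Markers of other tissues that make these proteins are given by level, with no test. Of 6 alveolar type 2 markers, Sftpa1 and Sftpb held at most 3 counts in every sample and Sftpc at most 4.75 CPM, while Slc34a2, a phosphate transporter, read 51.3 to 522 CPM in B1/P/Rbf and made up most of a summed level of 53.1 to 526 CPM there, 7.38 to 71.3 CPM in P/Rbf, 5.28 to 16.9 CPM in B1/P and 18.4 to 24.4 CPM in glands. Of 8 ciliated cell markers, Foxj1, the regulator of motile cilia, read 43.2 to 158 CPM in B1/P/Rbf, 2.43 to 38.1 CPM in P/Rbf and at most 4.73 CPM in B1/P, and Cfap126 read 4.16 to 26.4 CPM in B1/P/Rbf against 1.91 to 3.28 CPM in B1/P. Rsph1 and Dynlrb2 had medians of 4.15 and 1.30 CPM in B1/P/Rbf against 0.763 and 0 CPM in B1/P. Tppp3 had medians of 5.48 CPM in B1/P/Rbf against 13.0 CPM in B1/P, and Dnah5, Tekt1 and Ccdc153 read at most 0.216 CPM in any B1/P/Rbf tumor. The summed ciliated level was 53.7 to 192 CPM in B1/P/Rbf, 20.3 to 82.9 CPM in P/Rbf, 14.2 to 32.4 CPM in B1/P and 70.3 to 86.8 CPM in glands. Of 8 salivary gland markers, Aqp5, a water channel of secretory epithelia, made up most of the level in tumors, at 64.7 to 123 CPM in B1/P/Rbf, up to 693 CPM in B1/P, 14.9 to 718 CPM in P/Rbf and 125 to 403 CPM in glands, and Amy1 (amylase) read 315 to 455 CPM in glands and at most 19.0 CPM in tumors. Prb1 was at 0 in all samples, Bpifa2 held at most 2 counts, and Dcpp1 reached 25.0 CPM in tumor 287822. The summed salivary level was 69.9 to 127 CPM in B1/P/Rbf, 18.2 to 719 CPM in P/Rbf, 30.2 to 700 CPM in B1/P and 444 to 718 CPM in glands. The part of these cell types in the members' levels was not tested.

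Enzymes that build mucin sugars changed in both directions, with 4 higher and 3 lower of 25 tested in each T121 group against B1/P (medians -0.12 in B1/P/Rbf and 0.24 in P/Rbf on the log2 scale). St3gal1, which caps the core sugar with sialic acid, rose from 46.5 to 77.2 CPM in B1/P to 336 to 590 CPM in B1/P/Rbf (log2 difference 2.98, SE 0.38, edgeR adjusted p = 0.000233) and also rose in P/Rbf (log2 difference 2.26, SE 0.37, adjusted p = 0.00105). Galnt6, which starts O-linked chains, fell in B1/P/Rbf (log2 difference -3.16, SE 0.73, adjusted p = 0.00798) and in P/Rbf (log2 difference -3.50, SE 0.75, adjusted p = 0.00478). Gcnt4 rose in B1/P/Rbf (log2 difference 2.52, SE 0.70, adjusted p = 0.0202) and B3gnt3 in P/Rbf (log2 difference 1.90, SE 0.45, adjusted p = 0.00836).

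Of 16 genes of mucin secretion and shedding, 3 rose and 2 fell in B1/P/Rbf against B1/P, and 3 rose and 1 fell in P/Rbf (medians 0.53 and 0.33 on the log2 scale). Adam10, a protease that sheds membrane proteins, rose from 133 to 316 CPM in B1/P tumors to 862 to 1518 CPM for B1/P/Rbf and 794 to 1751 CPM for P/Rbf (log2 differences 2.34, SE 0.28, and 2.54, SE 0.28, edgeR adjusted p = 0.000132 and 9e-05). Syt2, a calcium sensor of mucin granule release, rose in B1/P/Rbf (log2 difference 4.55, SE 1.03, adjusted p = 0.00692), although at no more than 3.73 CPM, and the chloride transporter Slc26a9 fell (log2 difference -4.65, SE 0.82, adjusted p = 0.00162).

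Of 18 tested epithelial transcription factors, 7 rose and 2 fell in B1/P/Rbf against B1/P, and 8 rose and 2 fell in P/Rbf (medians 1.59 and 1.07 on the log2 scale). Sox10, a factor of basal-like and neural crest cells, fell from 164 to 612 CPM in B1/P to at most 2.73 CPM in B1/P/Rbf (log2 difference -9.35, SE 1.30, edgeR adjusted p = 0.000422) and at most 1.89 CPM in P/Rbf. Pgr, the progesterone receptor, rose in B1/P/Rbf (log2 difference 4.19, SE 1.27, adjusted p = 0.0321). Hnf4a, a factor of gut and liver epithelium, read 0.331 to 17.7 CPM in B1/P/Rbf and at most 1 count in each B1/P tumor (edgeR, adjusted p = 0.00213).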

How the data were processed

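RNA from whole tissue was sequenced as paired-end, stranded poly(A)-selected libraries. Per the labels and the study's methods the authors trimmed reads with cutadapt 1.18 and deposited RSEM 1.3.0 expected counts per gene, not normalized; 5.61% of values were not whole, but all 180 member values were. The methods name a human build, whereas all 55450 identifiers and symbols match mouse GENCODE M21. Counts were rounded and tested in R 4.3.3 with edgeR 4.0.16 (filterByExpr with a minimum count of 10, TMM, quasi-likelihood test, 1 fit of all 18 samples, group means), with Benjamini-Hochberg adjustment over 19186 genes and calls at 0.05. The fit was tested on simulated data. SE is the log2 difference divided by the square root of F. A group with at most 3 counts in every sample was at the floor, and folds against it use 3 counts per library and are lower bounds. The precision of CPM values rests on 27661173 to 37794889 counts per sample and covers counting error only.

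The members and gene lists were chosen with earlier results of these data known. From each list, at most 3 genes per comparison were named, those called with the largest difference and a mean level no lower than 1 CPM, at most 6 per list; marker genes are named for their level. One gene that the rule would name is not reported here. Groups came from the labelled genotype. Replicates are separate mice. No 2 replicates agreed within sampling noise (chi-square per gene of 25.0 or more in 33 pairs). Alternatives were DESeq2 1.42.0, limma 3.58.1 (voom, quantile normalization), no TMM, no filter, a minimum CPM of 6, or log2 CPM of 6, in 6 or more samples, only the groups compared, and leaving out each sample.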

Additional observations from a re-analysis of the deposited data

Results flagged for a closer look

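Among the 24 groups of 5 tumors (8 tested genes in 3 genotypes), 2 held a sample far from the others of its group by Dixon's test at 95% on log2 CPM, and chance flags about 1 in 20 groups. Muc20 read 2.38 CPM in B1/P/Rbf tumor 209490, against 28.6 to 40.9 CPM in the other tumors of that genotype. Muc13 read 1.39 CPM in B1/P tumor 248662, against 0.0887 to 0.223 CPM in the others.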

How the results depend on the processing

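Calls of Muc13 against B1/P tumors, of Muc15 and of Muc1 in B1/P/Rbf against B1/P kept their direction and threshold wherever the gene was tested. The number of members called changed as follows, of 8 members tested unless given. With a minimum log2 CPM of 6 in 6 or more samples only 1 member was left to test, and 1 was called in each T121 group against B1/P and 0 in each against normal gland. With limma-voom, 2 were called in P/Rbf against B1/P and 1 in P/Rbf against normal gland. In fits of the compared groups alone, of 7 tested, 3 were called in B1/P/Rbf against B1/P, 2 in P/Rbf against B1/P, 5 in B1/P/Rbf against normal gland and 2 in B1/P against normal gland. With DESeq2, 6 and 2 of 7 were called in the last 2 comparisons (8019 and 7491 of all genes, against 7108 and 6481 by edgeR), and with the CPM filter 1 of 4 was called in P/Rbf against normal gland, 2 of 4 in B1/P/Rbf against normal gland and 3 of 4 in each T121 group against B1/P. Smaller changes with DESeq2 were 3 of 7 in each T121 group against B1/P. In P/Rbf against normal gland DESeq2 called 3 of 7 (Muc1, Muc15 and Bpifb1). Others were 3 of 8 in B1/P/Rbf against B1/P and 2 against normal gland with limma-voom. Without TMM, 4 were called in B1/P/Rbf and 3 in P/Rbf against normal gland. Leaving out 1 sample gave 4 to 5 calls in B1/P/Rbf against B1/P, 3 to 4 in P/Rbf against B1/P, 0 in B1/P/Rbf against P/Rbf, 1 to 4 in B1/P/Rbf, 1 to 2 in B1/P and 1 to 3 in P/Rbf against normal gland.

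Directions that turned were of differences not called. With limma-voom the log2 difference became 0.4 for Muc5ac and -0.19 for Muc20 in B1/P against normal gland, -1.26 for Muc16 in B1/P/Rbf against P/Rbf and -0.55 against normal gland, and 1.1 for Muc20 in P/Rbf against B1/P. Without TMM, Muc1 in B1/P against normal gland became 0.33. Leaving out 1 sample, the log2 difference in B1/P/Rbf against P/Rbf ran from -3.59 to 1.87 for Muc5ac, -0.18 to 2.31 for Muc4, -0.49 to 1.23 for Muc16 and -1.94 to 2.47 for Bpifb1. In B1/P/Rbf against B1/P it ran from -0.42 to 0.86 for Muc4 and -2.99 to 0.34 for Bpifb1, and in P/Rbf against B1/P from -1.93 to 0.24 for Muc4 and -1.0 to 2.71 for Muc20. Against normal gland it ran in B1/P from -0.93 to 2.54 for Muc5ac, -0.61 to 0.28 for Muc1 and -0.95 to 2.3 for Muc20, and for Muc16 from -0.38 to 1.38 in B1/P/Rbf and -1.03 to 1.31 in P/Rbf. The cause was not tested.

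Without TMM the median of all genes against normal gland shifted to 0.419 in B1/P/Rbf, 0.475 in B1/P and 0.327 in P/Rbf, from 0.051, 0.122 and 0.055, and calls became 5122 higher and 2887 lower in B1/P/Rbf, from 3273 and 3835. Muc1 in P/Rbf against normal gland was called with DESeq2 (adjusted p = 0.0136) and without TMM (0.0407). DESeq2 called 1026 genes in B1/P/Rbf against P/Rbf, edgeR 54 and limma-voom 26. Muc5ac held at most 2 counts per sample in B1/P tumors and glands, so a difference between those groups was not detectable at this depth. No paired analysis was possible because each sample is a different mouse and the labels give no replicate numbers that tie samples of different groups together.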
